A study of Equus caballus with 15 samples.

Results

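The genes of the cytosolic ribosomal proteins were followed in equine macrophages through 5 conditions. A gene was taken when its symbol began with RPL or RPS and a digit, or was RPSA, RPLP0, RPLP1, RPLP2 or FAU, and S6 kinases, RPS19BP1 and names ending in L or L1 were left out. This gave 66 of the 16932 genes listed, 29 for proteins of the small (40S) subunit and 37 for proteins of the large (60S) subunit. Macrophages were grown from blood mononuclear cells of 2 horses with M-CSF at 30 ng/ml for 5 days. The controls were left untreated, and all other macrophages received IL-1ß, an inflammatory cytokine of the arthritic joint, at 10 ng/ml. In 3 of these groups an orthobiologic therapy (OT) made up 25% of the medium at the same time. The OTs were conditioned medium of bone marrow mesenchymal stromal cells (MSC-CM), autologous conditioned serum (ACS, from blood incubated to enrich cytokine antagonists), and PRP lysate, the lysed platelets of platelet rich plasma, each from 3 donor horses other than those that gave the macrophages. Treatment lasted 24 h. The sample labels place collection at its end, and the methods of the study add a further day of culture. Each of the 5 groups had 3 libraries of polyadenylated RNA. By the study's description the untreated and the IL-1ß libraries are technical replicates of the macrophages and the OT libraries are replicates of the product, so p-values measure only the spread between these samples.

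Ribosomal proteins surround the ribosomal RNA of the 2 subunits, the small one reading the mRNA and the large one joining amino acids. Their mRNAs are abundant, short and made by nearly every cell, and most begin with a run of pyrimidines, the 5′ TOP tract, through which mTORC1 and LARP1 control their translation and stability. A macrophage that is activated needs new protein, and levels of these mRNAs describe the supply of ribosomal parts, not the number of ribosomes or their activity. In bulk RNA a smaller number of cells of one kind and less RNA per cell cannot be told apart.

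The libraries held 28410735 to 47894071 reads on genes. Macrophage markers summed to between 2284 and 6664 CPM (reads scaled to the same total in every library) and none of the 11 listed was at 0, whereas markers of fibroblasts and MSC summed to at most 2.94 CPM. Of 5 markers of T cells, none was at 0 and the sum ranged from 494 to 1441 CPM. Over all genes 3 libraries stood apart on the first principal component, which carried 55.4% of the variance. These were IL-1ß replicate 3 at -103, PRP lysate replicate 1 at -51.7 and MSC-CM replicate 1 at -20.7, while the other 12 lay between -8.15 and 26.6. Values are therefore given by library.

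The ribosomal protein genes took 2.93% to 7.21% of the reads, a range of 2.46-fold, and the extremes were an untreated and an IL-1ß library. In untreated macrophages their share was 3.70%, 2.93% and 3.59% in replicates 1, 2 and 3. With IL-1ß alone it was 3.41%, 4.27% and 7.21%. One IL-1ß library therefore lay inside the untreated range and another above every other library of the series. With MSC-CM the share was 5.13%, 4.10% and 3.99%, with PRP lysate 5.52%, 3.10% and 3.46%, and with ACS 3.18%, 3.18% and 3.15%. The 3 ACS libraries lay together below every IL-1ß and every MSC-CM library and inside the untreated range. The means were 3.41% ± 0.416 in untreated macrophages, 4.96% ± 1.99 for IL-1ß, 4.41% ± 0.628 for MSC-CM, 4.03% ± 1.3 for PRP lysate and 3.17% ± 0.0133 for ACS (SD, n = 3). Counting error was far smaller than these spreads: the 95% Wilson interval of the highest share ran from 7.20% to 7.22% and covers counting error only.

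**Figure D1:**
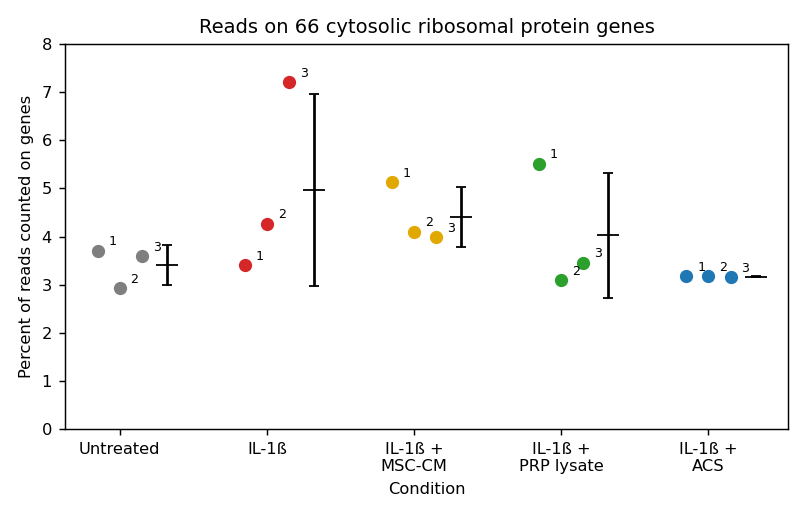
Percent of the reads on genes that fell on the 66 cytosolic ribosomal protein genes (y axis, from 0) in each of the 15 libraries (points, numbered by replicate) of the 5 conditions (x axis), with the mean and SD of 3 libraries beside them. IL-1ß replicate 3 stands highest at 7.21%, and the 3 ACS libraries lie between 3.15% and 3.18%.

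For the mean log2(CPM + 1) of the 64 genes tested, which ran from 8.32 to 9.62, 64.1% of the variance over libraries lay within the conditions, which held 71.4% of the degrees of freedom, and 35.9% between them. This span of 1.3 on the log2 scale fell to 0.56 without the 3 libraries that stood apart. Of the 61 genes whose mean reached 30 CPM, 60 were highest in IL-1ß replicate 3, and the exception was RPL15, highest in PRP lysate replicate 1. The lowest library was untreated replicate 2 for 46 of the 61, PRP lysate replicate 2 for 6, ACS replicate 3 for 5, ACS replicate 2 for 3 and ACS replicate 1 for 1. The median coefficient of variation of these genes over 3 libraries was 40.8% with IL-1ß, 31.5% with PRP lysate, 15.8% with MSC-CM, 13.9% in untreated macrophages and 3.06% with ACS.

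**Figure D2:**
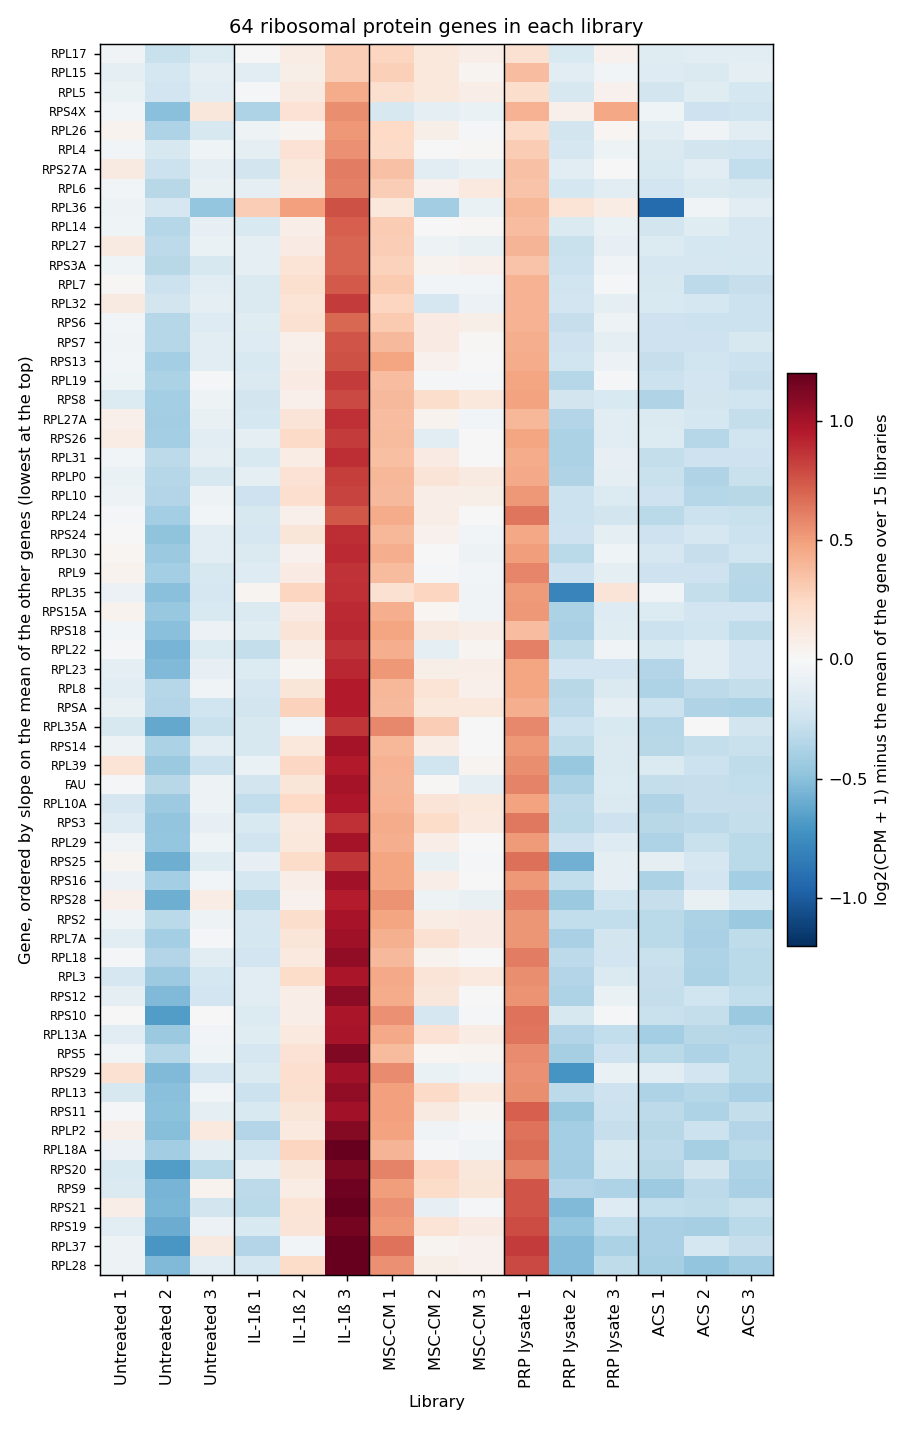
The 64 ribosomal protein genes tested (rows, ordered by their slope on the mean of the others) in the 15 libraries (columns), coloured by log2(CPM + 1) minus the mean of the gene over all libraries. The column of IL-1ß replicate 3 is the reddest, those of PRP lysate replicate 1 and MSC-CM replicate 1 follow, and genes at the top, such as RPL17 and RPL15, vary less than RPL37 and RPL28 at the bottom.

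Among the proteins of the small subunit, RPS3 lines the entry of the mRNA channel. It was at 693, 556 and 721 CPM in untreated macrophages, 679, 835 and 1414 CPM with IL-1ß, 1053, 897 and 834 CPM with MSC-CM, 1196, 615 and 649 CPM with PRP lysate and 612, 621 and 633 CPM with ACS. All 3 MSC-CM libraries and only 2 of 3 IL-1ß libraries exceeded the untreated ones. RPS6 is the subunit's best known substrate of the S6 kinases downstream of mTORC1. Its values were 821, 665 and 757 CPM untreated, 762, 955 and 1355 CPM with IL-1ß, 1049, 902 and 882 CPM with MSC-CM, 1123, 695 and 804 CPM with PRP lysate and 709, 703 and 704 CPM with ACS. The 3 ACS libraries lay close together and inside the untreated range.

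RPS19, needed for maturation of the 18S rRNA and mutated in Diamond-Blackfan anemia, varied more. It stood at 567, 412 and 594 CPM untreated, 549, 695 and 1387 CPM with IL-1ß, 895, 702 and 669 CPM with MSC-CM, 1077, 453 and 508 CPM with PRP lysate and 476, 474 and 500 CPM with ACS. The gene lies at chr10:14013665-14021380 (EquCab3.0), and chromosome 10 carries 9 of the 66 genes, which are spread over 23 chromosomes. RPSA, also known as the laminin receptor, measured 522, 435 and 469 CPM untreated, 477, 672 and 1077 CPM with IL-1ß, 728, 608 and 607 CPM with MSC-CM, 752, 447 and 511 CPM with PRP lysate and 465, 433 and 428 CPM with ACS. For RPSA the ACS libraries were below all IL-1ß and all MSC-CM libraries but overlapped the untreated ones.

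Of the genes whose proteins are made as fusions, RPS27A carries ubiquitin. It was at 393, 305 and 336 CPM untreated, 312, 398 and 557 CPM with IL-1ß, 467, 335 and 345 CPM with MSC-CM, 465, 333 and 363 CPM with PRP lysate and 321, 331 and 298 CPM with ACS. Its ACS libraries lay below all MSC-CM and all PRP lysate libraries and overlapped the others. FAU joins a ubiquitin-like protein to RPS30. It gave 360, 290 and 351 CPM untreated, 313, 403 and 730 CPM with IL-1ß, 486, 368 and 336 CPM with MSC-CM, 551, 280 and 325 CPM with PRP lysate and 298, 301 and 297 CPM with ACS. For FAU the ACS libraries lay below all IL-1ß and all MSC-CM libraries and inside the untreated range.

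In the large subunit, RPL3 lies next to the peptidyl transferase center. It was at 1078, 915 and 1069 CPM untreated, 1123, 1444 and 2439 CPM with IL-1ß, 1701, 1378 and 1344 CPM with MSC-CM, 1821, 971 and 1095 CPM with PRP lysate and 1020, 954 and 987 CPM with ACS. All IL-1ß and all MSC-CM libraries exceeded all untreated and all ACS libraries. RPL13A, which has a second known role in silencing inflammatory mRNAs in monocytes after interferon-γ, was at 1234, 991 and 1315 CPM untreated, 1214, 1463 and 2664 CPM with IL-1ß, 1848, 1520 and 1434 CPM with MSC-CM, 2094, 1057 and 1097 CPM with PRP lysate and 1013, 1070 and 1061 CPM with ACS. Its ACS libraries lay below all IL-1ß libraries, with 1 untreated library lower still.

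RPL5 and RPL11 form the 5S particle, which also binds MDM2 and stabilizes p53 when ribosome assembly fails. RPL5 was at 552, 495 and 535 CPM untreated, 577, 627 and 796 CPM with IL-1ß, 667, 637 and 616 CPM with MSC-CM, 673, 509 and 603 CPM with PRP lysate and 500, 527 and 503 CPM with ACS. As with RPL3, the IL-1ß and MSC-CM libraries were all above the untreated and ACS libraries. RPL11 was at 0 reads in 14 of 15 libraries and at 10 reads in ACS replicate 1. A count of 0 allows up to 3 reads, or 0.0626 to 0.106 CPM depending on the library. RPS23 was at 0 in 12 libraries and reached 15 reads in another. Neither entered the tests, and whether reads of these 2 genes were lost to similar copies or to the annotation was not tested.

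RPLP0 builds the stalk that recruits elongation factors. It gave 1862, 1550 and 1723 CPM untreated, 1818, 2219 and 3491 CPM with IL-1ß, 2599, 2193 and 2118 CPM with MSC-CM, 2696, 1535 and 1813 CPM with PRP lysate and 1633, 1533 and 1632 CPM with ACS. RPLP2, its partner on the stalk, was at 460, 309 and 479 CPM untreated, 345, 478 and 948 CPM with IL-1ß, 614, 428 and 436 CPM with MSC-CM, 694, 333 and 364 CPM with PRP lysate and 351, 368 and 345 CPM with ACS. For both genes IL-1ß replicate 3 was highest, and the untreated and IL-1ß libraries overlapped. RPLP1 and RPL41 are among 13 of 79 known names not analysed here.

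**Figure D3:**
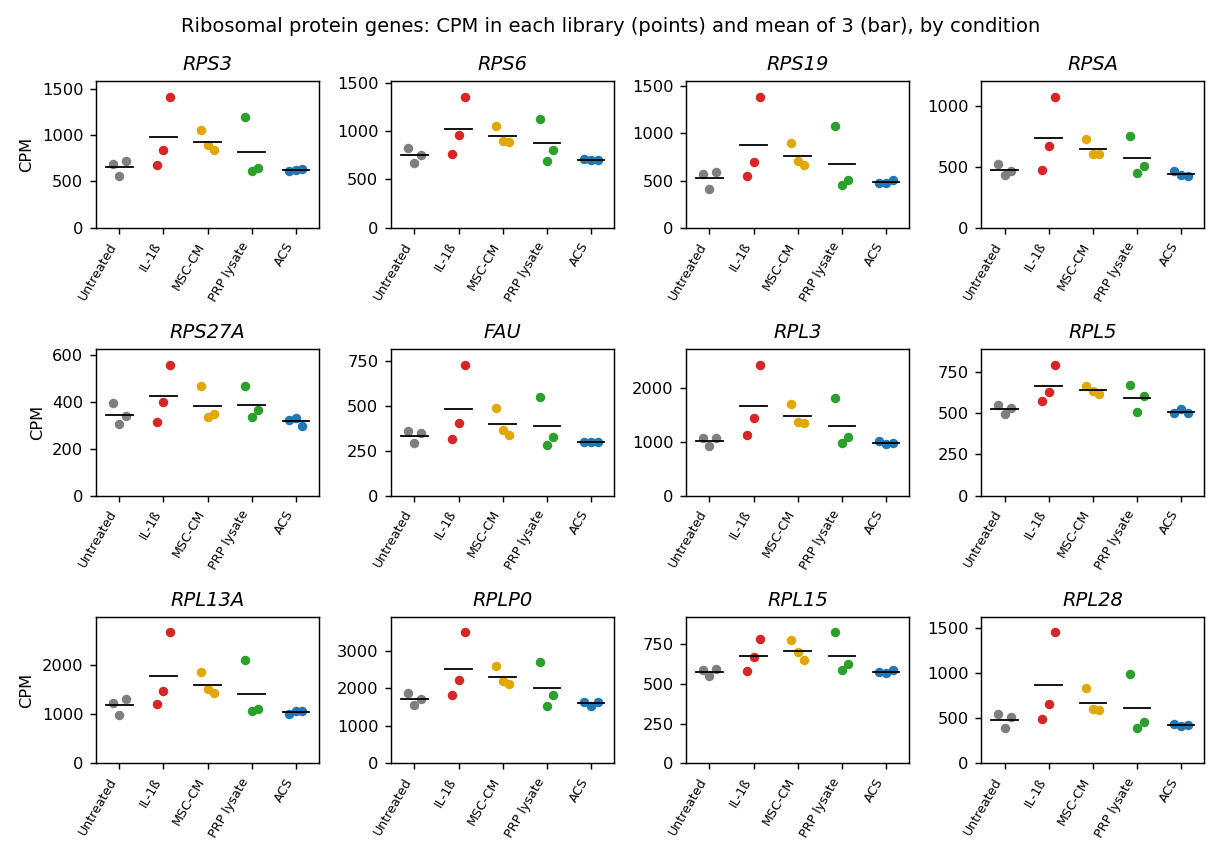
CPM (y axes, from 0) of 12 ribosomal protein genes in each library (points) of the 5 conditions (x axes), with the mean of 3 libraries as a bar. In 11 panels the highest point is IL-1ß replicate 3, in that of RPL15 it is PRP lysate replicate 1, and the ACS points lie close together.

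The first comparison, IL-1ß against untreated macrophages, asks what the cytokine alone did. All 64 genes had a positive log2 fold change (a difference of means of log2(CPM + 1)), with a median of 0.47 or 1.39-fold and a range of 0.22 to 0.77, but none passed the test. The median over all 11628 genes tested was -0.07. In limma with Benjamini-Hochberg adjustment 0 of 64 were called by an adjusted p up to 0.05 with a 2-fold change (background 0.292% of all genes) and 0 without the fold threshold (background 0.387%). The smallest adjusted p-value was 0.219, for RPL36, and edgeR and DESeq2 called 0. With an unadjusted p up to 0.05, 10 of 64 were higher with IL-1ß against a background of 6.45%, and 7 had every IL-1ß library above every untreated one against 7.98% of all genes. The 10 came to 2 with RLE or TMM factors, the replicate block or these 2 groups alone, and to 16 in DESeq2. Leaving out IL-1ß replicate 1 gave 60, untreated replicate 3 gave 4, and IL-1ß replicate 3 or untreated replicate 2 gave 1. It was 3 without the 3 libraries that stood apart. The share of all genes with an unadjusted p up to 0.05 was not computed in these alternative fits, nor in those of the comparisons below. Such counts therefore show only how far the result moves and have no background. Without the 3 libraries that stood apart the median was 0.15.

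The highest fold changes were those of RPS20 and RPL36. RPS20 (chr9:28299541-28347200), on the head of the small subunit, was at 601, 428 and 544 CPM untreated and 632, 746 and 1478 CPM with IL-1ß, a log2 fold change of 0.77 ± 0.30 (SE, adjusted p = 0.303 in limma). RPL36 was at 3.19, 2.80 and 2.16 CPM untreated and 4.36, 5.14 and 6.43 CPM with IL-1ß, a log2 fold change of 0.76 ± 0.25 (SE). Neither gene overlapped between the conditions. In the remaining libraries RPS20 was at 1031, 811 and 747 CPM with MSC-CM, 1031, 508 and 589 CPM with PRP lysate and 540, 585 and 528 CPM with ACS. The lowest were RPL15 at 0.22 ± 0.14 and RPS4X at 0.25 ± 0.24 (SE). RPL15 (chr16:60573303-60577422), a core protein of the large subunit, had 589, 551 and 591 CPM untreated and 580, 670 and 784 CPM with IL-1ß, so that 2 of 3 IL-1ß libraries exceeded the untreated ones. It was at 779, 699 and 652 CPM with MSC-CM, 824, 585 and 625 CPM with PRP lysate and 574, 567 and 588 CPM with ACS.

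ACS against IL-1ß asks whether the serum altered the response to the cytokine. All 64 genes were lower with ACS, with a median log2 fold change of -0.57, or 0.675-fold, and a range of -0.88 to -0.22, while the median of all genes was 0.13. The test called 0 of 64 with the fold threshold (background 2.21%) and 0 without it (background 3.45%). The smallest adjusted p-value was 0.0745, for RPL36, and edgeR called 0. DESeq2 on the recovered reads called 1, RPL36, at an adjusted p-value of 0.0242 (background 4.01%). Without IL-1ß replicate 1, limma called 1 of 64 (background 6.06%) and put 13 of 64 under an adjusted p of 0.05 without the fold threshold (background 10.1%). With an unadjusted p up to 0.05, 29 of 64 were lower with ACS against a background of 8.38%. The 29 came to 5 in a fit of these 2 groups alone, 54 in edgeR, 58 in DESeq2 and 17 without the 3 libraries that stood apart. Leaving out IL-1ß replicate 1 gave 60 and leaving out its replicate 3 gave 1, while dropping ACS replicates 1, 2 and 3 in turn gave 8, 4 and 5. The 8.38% belongs to the main fit, and no background was computed for these counts. In 47 of 64 every ACS library was below every IL-1ß library, against 11.2% of all genes. Without the 3 libraries that stood apart, 1 of which is IL-1ß replicate 3, the median was -0.25.

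RPL28 and RPL36 had the lowest values. RPL28 (chr10:24984362-25035500), a protein of the large subunit, was at 489, 660 and 1450 CPM with IL-1ß and 430, 409 and 425 CPM with ACS, a log2 fold change of -0.88 ± 0.37 (SE, adjusted p = 0.214 in limma). Untreated it was at 545, 393 and 516 CPM, which spans the ACS libraries. RPL36 was at 4.36, 5.14 and 6.43 CPM with IL-1ß and 1.31, 3.24 and 3.01 CPM with ACS, a log2 fold change of -0.88 ± 0.25 (SE). RPL36 rests on 48 to 186 reads per library, and its lowest ACS library, replicate 1, lies apart from the other two. With PRP lysate it was at 4.76, 3.92 and 3.66 CPM. RPL26, which sits by the exit tunnel, and RPL15 differed least, with log2 fold changes of -0.26 ± 0.17 and -0.22 ± 0.14 (SE). RPL26 was at 406, 304 and 344 CPM untreated, 376, 401 and 563 CPM with IL-1ß, 464, 412 and 388 CPM with MSC-CM, 462, 336 and 399 CPM with PRP lysate and 361, 381 and 359 CPM with ACS.

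MSC-CM against IL-1ß gave a median log2 fold change of -0.11, with 60 of 64 genes lower and 4 higher, against 0.16 for all genes. In limma 0 of 64 were called with the fold threshold (background 0%) or without it (background 0%). edgeR and DESeq2 called 0 members. With an unadjusted p up to 0.05, 1 of 64 was lower (background 0.697%), and in 1 of 64 the libraries did not overlap (background 1.54%). This was RPL36 in both counts, at 3.78, 2.29 and 3.14 CPM with MSC-CM, a log2 fold change of -0.64 ± 0.25 (SE, adjusted p = 0.705 in limma). Without IL-1ß replicate 1 the former count was 3, and it was 0 without IL-1ß replicate 3 or MSC-CM replicate 2. RPL39, at the exit tunnel, followed at -0.30 ± 0.29. It was at 326, 214 and 243 CPM untreated, 275, 345 and 565 CPM with IL-1ß, 390, 247 and 297 CPM with MSC-CM, 428, 211 and 258 CPM with PRP lysate and 258, 244 and 236 CPM with ACS. RPL35A, of the large subunit, was highest at 0.08 ± 0.28 and RPL15 next at 0.07 ± 0.14. RPL35A was at 205, 153 and 194 CPM untreated, 205, 229 and 425 CPM with IL-1ß, 350, 287 and 234 CPM with MSC-CM, 350, 195 and 206 CPM with PRP lysate and 185, 235 and 201 CPM with ACS. Its MSC-CM libraries were all above its untreated ones. The sign of the median depended on 1 library, being 0.19 without IL-1ß replicate 3 and 0.069 without the 3 libraries that stood apart. Its size depended on the scaling, at -0.30 with RLE and -0.28 with TMM factors, -0.37 in edgeR and -0.42 in DESeq2, all with 64 of 64 genes lower.

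PRP lysate against IL-1ß gave a median of -0.27, with 63 of 64 genes lower, against 0.11 for all genes. Here the test called 0 of 64 in limma, against a background of 3.09% with and 4.94% without the fold threshold, and edgeR and DESeq2 also called 0. With an unadjusted p up to 0.05, 0 of 64 were lower (background 7.68%), and 0 of 64 had libraries that did not overlap (background 6.47%). The count of 0 lower genes came to 20 without PRP lysate replicate 1, 14 without IL-1ß replicate 1 and 5 without the 3 libraries that stood apart. No share of all genes was computed for these fits, and the 7.68% is that of the main fit. RPL28, at 985, 395 and 460 CPM with PRP lysate, had the lowest value, -0.46 ± 0.37, and RPS29, a zinc-binding protein of the small subunit, came next at -0.43 ± 0.33 (SE). RPS29 was at 276, 168 and 211 CPM untreated, 215, 279 and 489 CPM with IL-1ß, 359, 230 and 235 CPM with MSC-CM, 354, 148 and 229 CPM with PRP lysate and 221, 207 and 194 CPM with ACS. Its PRP lysate libraries overlapped those of every other condition. RPL15 was at -0.01 ± 0.14 and RPS4X, the only one above 0, at 0.19 ± 0.24. Without IL-1ß replicate 3 the median turned to 0.034. Its size depended on the scaling, at -0.37 with RLE and -0.36 with TMM factors, -0.43 in edgeR and -0.45 in DESeq2.

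The OTs were also compared with each other. ACS against MSC-CM gave a median of -0.43, all 64 genes being lower with ACS, against -0.04 for all genes. The fit of all libraries called 0 of 64 in limma (background 1.23% with and 1.92% without the fold threshold), edgeR and DESeq2 called 0, and the smallest adjusted p-value was 0.288. With an unadjusted p up to 0.05, 8 of 64 were lower with ACS (background 8.8%). This count came to 0 with RLE or TMM factors, in edgeR, in DESeq2 and without MSC-CM replicate 1 or 2 or ACS replicate 1 or 3. It was 1 without ACS replicate 2, 4 without MSC-CM replicate 3, 2 without the filter, 53 with the 2 groups alone and 37 without the 3 libraries that stood apart. The 8.8% belongs to the main fit, and these other counts have no background of their own. In 57 of 64 genes every ACS library was below every MSC-CM library, against 22.2% of all genes. A fit of these 2 groups alone, whose spread comes from their 6 libraries only, put 31 of 64 under an adjusted p of 0.05, against 13.2% of all genes. A fit without the 3 libraries that stood apart put 11 of 64 there, against 8.72% of all genes, and none reached 2-fold in either.

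In this comparison RPS9, a protein of the small subunit that acts in decoding accuracy, was at 1165, 958 and 909 CPM with MSC-CM and 608, 662 and 630 CPM with ACS, a log2 fold change of -0.67 ± 0.35 (SE, adjusted p = 0.443 in limma). Elsewhere it was at 729, 560 and 849 CPM untreated, 663, 878 and 1848 CPM with IL-1ß and 1392, 644 and 638 CPM with PRP lysate. RPL28 was at 832, 597 and 588 CPM with MSC-CM, above all 3 ACS libraries, a log2 fold change of -0.65 ± 0.37 (SE). RPS4X at -0.05 ± 0.24 and RPL26 at -0.20 ± 0.17 had the smallest differences.

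PRP lysate against MSC-CM gave a median of -0.14, with 59 of 64 genes lower, against -0.09 for all genes. The test called 0 of 64 in limma (background 2.61% with and 4.22% without the fold threshold), as did edgeR and DESeq2. The count lower with an unadjusted p up to 0.05 was 0 (background 9.43%) and in 0 genes every PRP lysate library was below every MSC-CM library (background 12.1%). The former count came to 2 without PRP lysate replicate 1 and to 20 without the 3 libraries that stood apart, fits for which this background was not computed. In 1 gene, RPS4X, every PRP lysate library was above (background 7.24%). RPS20 was lowest at -0.34 ± 0.30, and RPL13, a protein of the large subunit, was next at -0.28 ± 0.29. RPL13 was at 906, 733 and 1014 CPM untreated, 866, 1181 and 2171 CPM with IL-1ß, 1463, 1218 and 1123 CPM with MSC-CM, 1523, 834 and 871 CPM with PRP lysate and 803, 815 and 789 CPM with ACS. Its first PRP lysate library lay above all MSC-CM libraries and the other two below them. RPS4X at 0.44 ± 0.24 and RPL36 at 0.34 ± 0.25 were highest. The median was 0.020 without PRP lysate replicate 2, with 41 of 64 higher, and -0.030 without MSC-CM replicate 1, with 37 lower. It was -0.40 without PRP lysate replicate 1. With RLE factors it was -0.061 with 51 lower, with TMM factors -0.058, in edgeR -0.052, and in DESeq2 -0.020 with 38 lower. Without the 3 libraries that stood apart 3 of 64 passed an adjusted p of 0.05, against 13% of all genes, and none reached 2-fold.

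PRP lysate against ACS gave a median of 0.30 with all 64 genes higher with PRP lysate, against -0.04 for all genes. The test called 0 of 64 in limma (background 0.0946% with and 0.103% without the fold threshold), and edgeR and DESeq2 called 0. With an unadjusted p up to 0.05, 1 of 64 was higher (background 1.8%), and 3 were without PRP lysate replicate 2. In 8 of 64 the libraries did not overlap (background 6.66%). RPL36 at 0.58 ± 0.25 and RPS4X at 0.49 ± 0.24 were highest, and RPL26 at 0.11 ± 0.17 and RPS29 at 0.15 ± 0.33 were lowest (SE). Without the 3 libraries that stood apart, 1 of which is PRP lysate replicate 1, the median was 0.048, with 47 of 64 higher. Comparisons with IL-1ß, with ACS or with MSC-CM share those libraries, so their medians are not independent of each other.

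**Figure D4:**
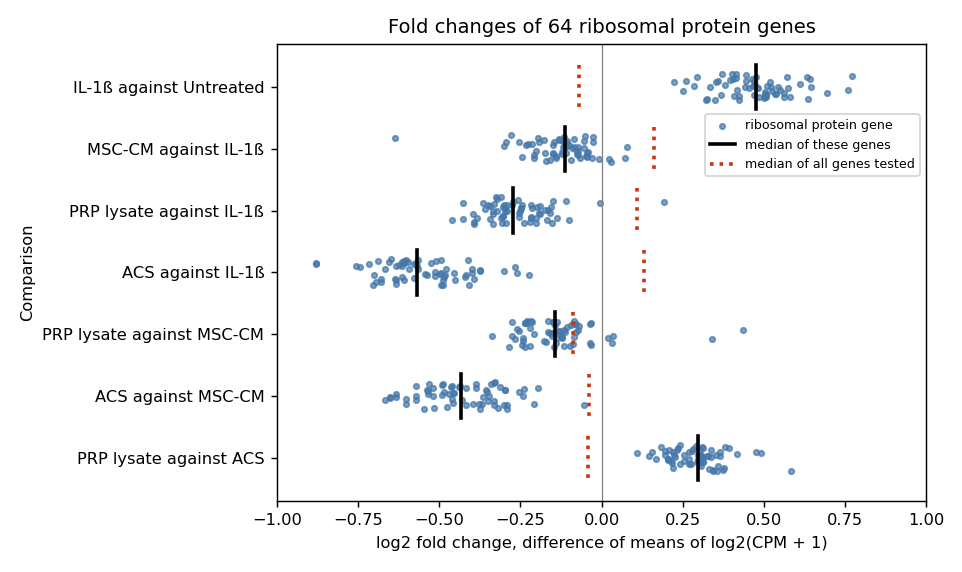
Log2 fold change (x axis, difference of means of log2(CPM + 1)) of each of the 64 ribosomal protein genes (points) in the 7 comparisons (y axis), with their median (black bar) and the median of all 11628 genes tested (dotted red bar). All points lie above 0 for IL-1ß against untreated and for PRP lysate against ACS, and all lie below 0 for ACS against IL-1ß and ACS against MSC-CM.

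The 2 subunits had similar values. The 40S genes had a median log2 fold change of 0.49 and the 60S genes one of 0.46 in IL-1ß against untreated macrophages, and -0.58 and -0.53 in ACS against IL-1ß. The CPM of the 40S genes summed to between 0.657 and 0.723 of that of the 60S genes, lowest in untreated replicate 2 and highest in IL-1ß replicate 3. Across the 15 libraries each of the 61 genes of at least 30 CPM had a Pearson correlation of 0.876 to 0.995 with the mean of the others, with a median of 0.984, a description of libraries that share 1 scaling. When each library was scaled to its median ribosomal protein gene, 0 of 64 passed an adjusted p of 0.05 in limma in any of the 7 comparisons. The backgrounds were 0.275% for IL-1ß against untreated, 0% for MSC-CM, 2.16% for PRP lysate and 2.68% for ACS against IL-1ß, 1.65% for PRP lysate and 1.3% for ACS against MSC-CM, and 0.12% for PRP lysate against ACS. The counts with an unadjusted p up to 0.05 were 1, 0, 1, 2, 2, 3 and 0 in the same order, against 19.3%, 1.44%, 16.9%, 36.8%, 11.1%, 15.6% and 4.13% of all genes. This scaling centres the ribosomal protein genes on about 0 and shifts the other genes. For ACS against IL-1ß the median over all genes became 0.64. Low counts beside these backgrounds are therefore largely set by the scaling.

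The genes differed in how far they varied between libraries. The ratio of the highest to the lowest library had a median of 2.60 over the 61 genes. It was lowest for RPL17, a protein at the exit tunnel, which ran from 488 CPM in untreated replicate 2 to 719 CPM in IL-1ß replicate 3, a ratio of 1.47. RPL5 had a ratio of 1.61, RPL4 of 1.73 and RPL26 of 1.85. It was highest for RPL37, a small zinc-binding protein of the large subunit, which ran from 181 to 701 CPM between the same libraries, a ratio of 3.86. RPL28 had a ratio of 3.69, RPS20 of 3.46 and RPS19 of 3.36. Per unit of log2 change in the other genes, RPL17 changed by 0.43, RPL15 by 0.49 and RPL5 by 0.52, against 1.38 for RPS19, 1.46 for RPL37 and 1.52 for RPL28.

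The 5 genes that departed most from the median ribosomal protein gene were RPL36, RPS4X, RPL37, RPL28 and RPS9, with SDs of 0.35, 0.28, 0.25, 0.22 and 0.19 on the log2 scale. RPL36 and RPS4X, with RPS10, were 3 tested genes at 1.31 to 19.0 CPM, far below RPL35, the next lowest, at a mean of 63.4 CPM. RPS4X, the X-linked form of RPS4, was at 4.21, 2.78 and 4.87 CPM untreated, 3.11, 5.03 and 6.85 CPM with IL-1ß, 3.67, 3.96 and 4.05 CPM with MSC-CM, 6.10, 4.57 and 6.34 CPM with PRP lysate and 4.15, 3.48 and 3.53 CPM with ACS. Its PRP lysate libraries were above all MSC-CM and all ACS libraries. The strand setting of the counting is not stated, and values of genes with near-identical or overlapping copies, as many ribosomal protein genes have, are uncertain.

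Other measures varied between the same libraries as the ribosomal protein genes. The correlation of their mean with the first principal component was -0.93 over the 15 libraries. The sum of T cell markers was 1389 CPM in IL-1ß replicate 3 and 1441 CPM in PRP lysate replicate 1 against a median of 758 CPM. The mean log2(CPM + 1) of these markers, not their sum, had a correlation of 0.84 with that of the ribosomal protein genes. The NK cell marker sum was 427 and 711 CPM in these libraries against a median of 250 CPM, with a correlation of 0.74 for their mean log2(CPM + 1). The B cell sum was highest in IL-1ß replicate 3 at 47.6 CPM and was 28.2 CPM in PRP lysate replicate 1, against a median of 22.2 CPM. For the B cell markers the correlation was weaker, at 0.52. The mean log2(CPM + 1) of the macrophage markers had a pooled correlation of 0.002. Their sum was nevertheless lowest of its group in both libraries, at 6664, 5604 and 3809 CPM with IL-1ß and at 2284, 4246 and 4473 CPM with PRP lysate. The median CPM of all genes and the number of genes at 1 CPM or more had correlations of -0.75 and -0.74 with the mean of the ribosomal protein genes. Ribosomal protein genes are short, with a median span in the genome of 4094 bases against 23143 over all genes tested. In IL-1ß replicate 3 they deviated from their mean by a median of 0.89 on the log2 scale, while the shortest decile of other genes deviated by 0.27 and the longest decile by -0.91. In PRP lysate replicate 1 these values were 0.52, 0.23 and -0.45, and in ACS replicate 3 they were -0.28, -0.06 and 0.26. The part of other cell types, of gene span and of what sets these libraries apart in the levels of ribosomal protein genes was not tested.

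**Figure D5:**
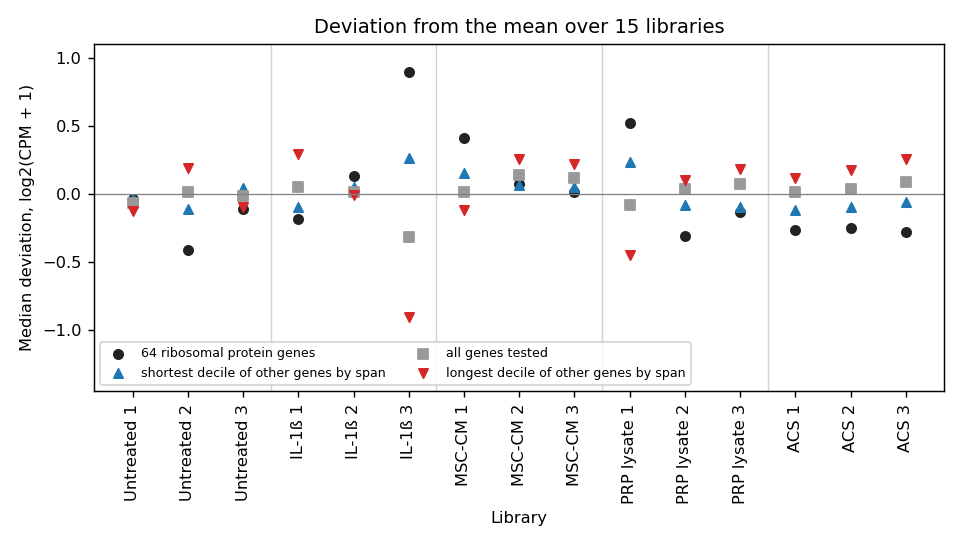
Median deviation of log2(CPM + 1) from the mean of each gene over 15 libraries (y axis) in each library (x axis) for the 64 ribosomal protein genes, all 11628 genes tested, and the shortest and longest decile of the other genes by span in the genome. In IL-1ß replicate 3 the ribosomal protein genes stand at 0.89 and the longest genes at -0.91.

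Genes outside the rule with the most similar pattern over the 15 libraries included EIF3G, a subunit of initiation factor eIF3, with a correlation of 0.99 with the mean of the ribosomal protein genes. ERCC1, a DNA repair nuclease subunit, and PARK7, a protein of the oxidative stress response, stood at 0.99 and 0.99. The other 7 of the 10 most similar are listed by Ensembl identifier alone, led by ENSECAG00000010622 with 0.99. The least similar were SPAG9, DYNC1LI2, RBMS1, FGD4 and NDST1, with -0.98 each. SPAG9, a scaffold of JNK signaling, had 144, 90.5 and 21.6 CPM with IL-1ß, the last in replicate 3. Of 11549 genes compared, 468 or 4.05% had a correlation above 0.9 and 666 or 5.77% had one below -0.9.

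Other genes of the translation machinery had their own values. RACK1, which sits on the small subunit, was at 1041, 870 and 946 CPM untreated, 992, 1318 and 1936 CPM with IL-1ß and 916, 821 and 891 CPM with ACS, with the IL-1ß and untreated libraries overlapping. For 22 other TOP mRNAs the median log2 fold change was 0.28 in IL-1ß against untreated macrophages and -0.25 in ACS against IL-1ß, and 0 were called. For 11 elongation factor genes it was 0.35 and -0.27, with 0 called. EEF1A1, which brings aminoacyl-tRNA to the ribosome, was at 3280 ± 208 CPM untreated, 4427 ± 814 CPM with IL-1ß and 3272 ± 99.7 CPM with ACS (SD, n = 3). For 71 mitochondrial ribosomal protein genes the medians were 0.02 and -0.20, with 38 of 71 above 0 with IL-1ß and 0 called. For 15 tested look-alikes of ribosomal protein genes, among them S6 kinases, the medians were 0.16 and -0.21, with 0 called.

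Of the genes that control translation, few passed the test. For 32 initiation factor genes the medians were -0.06 in IL-1ß against untreated macrophages and 0.02 in ACS against IL-1ß, and 1 passed in the latter without the fold threshold, a share near the 3.45% of all genes. This was EIF4E, the cap-binding protein, at 211, 209 and 126 CPM with IL-1ß and 295, 345 and 331 CPM with ACS, a rise of 0.86 ± 0.18 on the log2 scale (SE, adjusted p = 0.0202 in limma). With PRP lysate EIF4E was at 282, 380 and 355 CPM, a rise of 0.92 ± 0.18 over IL-1ß (SE, adjusted p = 0.00892). Its ACS and PRP lysate libraries all lay above its IL-1ß and MSC-CM libraries, and the untreated ones were at 278, 300 and 285 CPM. The call against IL-1ß was lost in 4 of 15 alternatives for ACS and in 3 of 16 for PRP lysate, with adjusted p up to 0.234 and 0.306, both with the 2 groups alone.

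Of 21 genes of mTORC1 and the kinases of ribosomal proteins, 2 were called in IL-1ß against untreated macrophages, both higher, against 0.292% of all genes. DDIT4, an inhibitor of mTORC1, was at 11.8, 10.6 and 11.3 CPM untreated, 49.0, 56.2 and 59.0 CPM with IL-1ß, 44.0, 47.5 and 48.7 CPM with MSC-CM, 18.7, 12.1 and 13.4 CPM with PRP lysate and 15.4, 11.2 and 10.8 CPM with ACS. It rose by 2.19 ± 0.18 on the log2 scale with IL-1ß (SE, adjusted p = 0.00019 in limma) and fell by 2.06 ± 0.18 with ACS against IL-1ß (adjusted p = 7.7e-05). With PRP lysate against IL-1ß its log2 fold change was -1.84 (adjusted p = 9.7e-05 in limma). EIF4EBP1, which holds EIF4E inactive until mTORC1 phosphorylates it, was at 27.3, 18.1 and 25.0 CPM untreated, 48.5, 51.7 and 71.3 CPM with IL-1ß, 63.0, 50.2 and 67.9 CPM with MSC-CM, 36.5, 23.8 and 26.1 CPM with PRP lysate and 24.1, 20.8 and 24.4 CPM with ACS. It rose by 1.25 ± 0.21 with IL-1ß (SE, adjusted p = 0.0348) and fell by 1.25 ± 0.21 with ACS against IL-1ß (adjusted p = 0.00713). With PRP lysate against IL-1ß its log2 fold change was -0.97 (adjusted p = 0.0183 in limma), short of 2-fold. Both genes were the 2 called in ACS against IL-1ß, against 2.21% of all genes, and for both the IL-1ß libraries lay above every untreated and every ACS library. With the IL-1ß and untreated groups alone the adjusted p for DDIT4 was 0.0657, and DDIT4 passed in the other 15 alternatives. EIF4EBP1 lost its call against untreated in 11 of 16 alternatives (adjusted p up to 0.472). In ACS against IL-1ß its adjusted p failed in 1 of 15, with the 2 groups alone (0.0749). Scaling to the median ribosomal protein gene also lost that call, since the log2 fold change of -0.70 was short of 2-fold (adjusted p = 0.0486 in limma).

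Genes that assemble the ribosome had other values than those of its proteins. For 63 genes of ribosome assembly and rRNA synthesis the median log2 fold change was -0.10 in IL-1ß against untreated macrophages, 0.19 in ACS and 0.35 in PRP lysate against IL-1ß, where the ribosomal protein genes stood at 0.47, -0.57 and -0.27. With PRP lysate 58 of 63 were above 0 against 7111 of all 11628 genes, and 3 passed without the fold threshold, a share near the 4.94% of all genes. The 3 were DKC1, UTP4 and MYC. DKC1, the pseudouridine synthase of rRNA, rose by 0.59 ± 0.14 (SE, adjusted p = 0.0303 in limma), UTP4 by 0.52 ± 0.14 (adjusted p = 0.0437) and MYC, a transcription factor that drives ribosome synthesis, by 0.69 ± 0.18 (adjusted p = 0.0431). NPM1, a nucleolar chaperone, was at 602, 491 and 521 CPM untreated, 474, 506 and 522 CPM with IL-1ß and 605, 621 and 693 CPM with PRP lysate. Its PRP lysate libraries all lay above its IL-1ß libraries, as did those of 8.5% of all genes. The calls of DKC1, UTP4 and MYC were lost in 11, 10 and 10 of 16 alternatives, RLE factors, edgeR and the replicate block among them. No test of the difference between the lists was made.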

How the data were processed

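Polyadenylated RNA of 15 libraries in 5 groups was analysed. The authors trimmed reads at a Phred score of 20 with cutadapt in Partek Flow, aligned them with STAR 2.7.3 to EquCab3.0, counted them with HTSeq on Ensembl genes and deposited CPM for 16932 genes. The listed CPM sum to between 982495 and 991421 per library, since some genes are not listed. The strand setting is not given in the sources used here. No per-sample column was left unmatched (0 columns).

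The smallest step of each library gave whole reads for 100% of 157956 values of up to 2000 reads, within 0.05 read. These reads served edgeR and DESeq2 only. A mean of 1 CPM over the 15 libraries was required, which 11628 genes met, and log2(CPM + 1) was fitted in limma (eBayes with trend) with 5 groups and no block, with Benjamini-Hochberg adjustment over all genes in each comparison. Log2 fold changes on this scale understate those of genes with few CPM. Called means an adjusted p up to 0.05 with a change of at least 2-fold. Alternatives were RLE and TMM factors, scaling to the median ribosomal protein gene, edgeR, DESeq2, a replicate block, leaving out libraries, a fit of 2 groups alone, a pseudocount of 0.1, no filter and no fold threshold.

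The members, gene lists and tests were chosen with earlier results of these data known. Genes shown in every library were 12 of known role, the 2 highest and 2 lowest fold changes in each comparison, and the 5 that depart most from the median member. RPLP2, RPL17, RPL37 and genes of other lists with values were added after their values were seen. The titles number the replicates except those of ACS, which were numbered in accession order. Deviations of same-numbered PRP lysate and MSC-CM libraries had correlations of 0.63, 0.26 and 0.42, and those of other groups did not all exceed 0.1. No label states that the numbers pair libraries, and replicate 1 of PRP lysate and of MSC-CM both stood apart. Whether the numbers mark shared donors was therefore not settled by these values. Replicates of a group differed by more than counting noise.

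On simulated libraries for ACS against IL-1ß with 200 changed among 11548 genes, limma found 194 at the adjusted p-value and called 135 with the fold threshold, 96 of those changed 4-fold, and 0 unchanged genes. The simulated noise was independent between genes and the same in every group, and no simulated library stood apart. In the real IL-1ß libraries the ribosomal protein genes had a median coefficient of variation of 40.8%. The simulation therefore checks the procedure and does not measure how many real changes the tests could find. Sequences were not used here. Tests were run in R 4.3.3 with DESeq2 1.42.0, edgeR 4.0.16 and limma 3.58.1, and plots in matplotlib 3.10.9 under Python 3.11.15.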

Additional observations from a re-analysis of the deposited data

How the results depend on the processing

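Of 116 alternative counts of ribosomal protein genes called, 114 stayed at 0 and 2 came to 1, both for ACS against IL-1ß: 1 with DESeq2 and 1 without IL-1ß replicate 1. Leaving out each library in turn gave 0 to 1 in that comparison and 0 in the other 6. Without the fold threshold, 31 passed in ACS against MSC-CM with the 2 groups alone and 11 without the 3 libraries that stood apart, 13 in ACS against IL-1ß without IL-1ß replicate 1, 1 there with DESeq2, and 3 in PRP lysate against MSC-CM without the 3 libraries. The replicate block, possible in 4 comparisons, called 0 in each and changed no call. No block was fitted with ACS, whose titles carry no replicate numbers.

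Median log2 fold changes kept their sign in 98 of 102 alternatives, which leave out the scaling to the median ribosomal protein gene, since it centres them on about 0 (-0.027 to 0.071). Leaving out each library in turn, they ranged from 0.15 to 0.72 for IL-1ß against untreated, -0.36 to 0.19 for MSC-CM against IL-1ß, -0.52 to 0.034 for PRP lysate against IL-1ß, -0.79 to -0.25 for ACS against IL-1ß, -0.40 to 0.020 for PRP lysate against MSC-CM, -0.51 to -0.31 for ACS against MSC-CM and 0.05 to 0.47 for PRP lysate against ACS. The signs turned without IL-1ß replicate 3 (0.19 for MSC-CM and 0.034 for PRP lysate) and without PRP lysate replicate 2 (0.020). Without the 3 libraries that stood apart, an alternative chosen after seeing the data, MSC-CM against IL-1ß gave 0.069. The cause was not tested. RLE factors moved the median of MSC-CM against IL-1ß from -0.11 to -0.30 and that of ACS against IL-1ß from -0.57 to -0.70, as they did for all genes, and turned no sign. With 3 libraries a group, the standard errors of the log2 fold changes had a median of 0.27, and differences of that size could not be told from 0.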
